A study of Danio rerio with 16 samples.

Results

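The vascular endothelial growth factor (VEGF) ligands *vegfaa*, *vegfab* and *vegfc*, the VEGF receptors *flt1*, *kdrl*, *kdr* and *flt4*, and the Tie kinases *tie1* and *tek* were followed through nuclei of the adult zebrafish heart. The 9 genes were chosen by symbol, each has 1 row in the gene tables, and they are 9 of the 24753 symbols that all tables share. Nuclei came from flash-frozen hearts of adult fish, either wild type (WT) or mutant in *cited4a*, the latter labelled pt38a/pt38a. The hearts were either uninjured (UI) or taken 3 days post amputation (dpa) of about 20% of the ventricle. The labels list 16 samples, 4 for each of the 4 groups. Their titles end in L001 to L004 in every group, a form also used for sequencing lanes, so they may not be separate biological samples. The counts of each group came as 1 matrix whose barcodes name no sample, so each group was treated as 1 library. No difference below has a replicate check, and no test was made. The labels do not say how many hearts a group pooled. Runs of 4 values give WT UI first, then WT 3 dpa, then the mutant libraries as UI and 3 dpa.

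In vertebrates, VEGFA ligands drive the growth and survival of blood vessels, mainly through the receptor KDR. Zebrafish carry the VEGFA paralogs *vegfaa* and *vegfab* and the KDR-type receptors *kdrl* and *kdr*, while *flt1* encodes a receptor known as a decoy that binds VEGFA and holds its signal down. *vegfc* and its receptor *flt4* guide lymphatic growth and, in embryos, venous sprouting. *tek* encodes the receptor of the angiopoietins, and *tie1* its partner receptor.

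Of the barcodes with at least 500 unique molecular identifiers (UMIs) and at most 5% mitochondrial UMIs, 7687, 9770, 9336 and 8592 were kept after doublet removal, with medians of 1686, 1036, 966 and 936 UMIs per nucleus. The libraries of the 2 genotypes were counted on different gene tables (25432 genes in both WT libraries, 27758 in both mutant ones), so genotype and gene table cannot be told apart. The WT pair shared 136 barcodes and the mutant pair 133. RNA of the targeted gene, *cited4a*, was at 155, 54.8, 32.9 and 371 CPM, the UMI counts scaled to one common total, over all kept nuclei, lowest in the library labelled mutant UI and highest in the library labelled mutant 3 dpa. RNA level does not show whether the allele makes protein, and every direction below rests on the labels of single libraries.

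Nuclei were grouped into 24 clusters without using the 9 genes, and 18 of them were named by their markers. The unnamed clusters held 15.2%, 3.78%, 7.54% and 0.652% of kept nuclei. In WT UI most of these were the 920 nuclei of cluster 13, which had 13 of 15 cardiomyocyte markers raised, with *flt1* among its leading genes. Cluster 13 was left unnamed because *flt1* and *adam12* led both it and the endothelial or endocardial-like cluster 4. The member *flt1* thus had a part in keeping these nuclei out of the cardiomyocyte-like class. All 19 endothelial and endocardial markers had UMIs in endothelial or endocardial-like nuclei of both WT libraries. *plvapa* was at 0 in both mutant libraries and *sox18* in mutant 3 dpa. These markers summed to 8648, 8063, 6130 and 6396 CPM in that class, and to 3274, 1549.9, 550.3 and 1198 CPM in erythrocyte-like nuclei. Erythrocyte-like nuclei should lack them and served as the reference for RNA from other cells. The reference was uneven. In WT UI it was 84 nuclei, and its marker sum was above that of thrombocyte-like (2034 CPM) and cardiomyocyte-like nuclei (517 CPM). Cluster 9 held 80 and 1154 of the WT erythrocyte-like nuclei, and cluster 12 held 876 and 150 of the mutant ones. Heart muscle RNA was more widespread: cardiomyocyte markers summed to between 49137 and 91771 CPM in cardiomyocyte-like nuclei and between 38191 and 57789.8 CPM in erythrocyte-like nuclei. CPM was taken within each class sum, and intervals in brackets are exact 95% intervals that cover counting error only.

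*vegfab*, a VEGFA paralog, was highest in cardiomyocyte-like nuclei in 4 of 4 libraries, although in mutant UI the intervals of mural-like and of T or NK cell-like nuclei reached it, and in mutant 3 dpa those of fibroblast-like and of T or NK cell-like nuclei. Its level there was 464 (449 to 478), 476 (462 to 489), 482 (465 to 499) and 524 (508 to 541) CPM, a narrow range. Cardiomyocyte-like nuclei held 68.6%, 74.9%, 72.8% and 84.1% of its UMIs, against 58.1%, 57.2%, 61.8% and 77.2% of all UMIs. The gene had a UMI in 55.5%, 39.4%, 39.4% and 40.1% of these nuclei, and in 19.2%, 14.7%, 20.4% and 22.3% once each nucleus was thinned to 500 UMIs. The larger share before thinning in WT UI went with the largest median depth, 1978 UMIs against 1381, 1185.5 and 1045. In erythrocyte-like nuclei *vegfab* reached 197, 318, 358 and 305 CPM, and 19.0%, 17.6%, 21.7% and 14.7% of them had a UMI, at median depths of 1007, 801, 711 and 560 UMIs. Thinned, that share was 5.95%, 6.81%, 16% and 16.9%, so among the nuclei left the distance from cardiomyocyte-like nuclei was small in the mutant libraries. Nuclei with fewer than 500 UMIs of shared genes were left out of the thinned shares. The mutant 3 dpa share, which rose from 14.7% to 16.9%, is thus of a smaller set of nuclei.

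*vegfaa*, the other VEGFA paralog, had no class that was highest in every library, although cardiomyocyte-like nuclei held most of its UMIs too, at 67.3%, 68%, 72.4% and 79.9%. In cardiomyocyte-like nuclei it was at 246 (235 to 257), 174 (166 to 183), 183 (172 to 193) and 141 (133 to 150.1) CPM. In fibroblast or epicardial-like nuclei it was at 367 (297 to 449), 161 (137 to 188), 120.0 (94.4 to 150.4) and 296 (227 to 379) CPM. Fibroblast-like nuclei were the higher of these 2 classes in WT UI and mutant 3 dpa, cardiomyocyte-like nuclei in mutant UI, and in WT 3 dpa the intervals overlapped. Mural-like nuclei, the smooth muscle cells and pericytes of vessel walls, held *vegfaa* at 273 (209 to 349.6) and 193 (138 to 263) CPM in the WT libraries. The mutant libraries had 72 and 22 mural-like nuclei with 4 and 3 *vegfaa* UMIs, too few to place it. Erythrocyte-like nuclei read 187 (113 to 293), 116 (102 to 131), 128 (104 to 156) and 168 (96.1 to 273) CPM. Cardiomyocyte-like nuclei were above that background in WT 3 dpa and mutant UI, and overlapped it in WT UI and mutant 3 dpa.

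**Figure D1:**
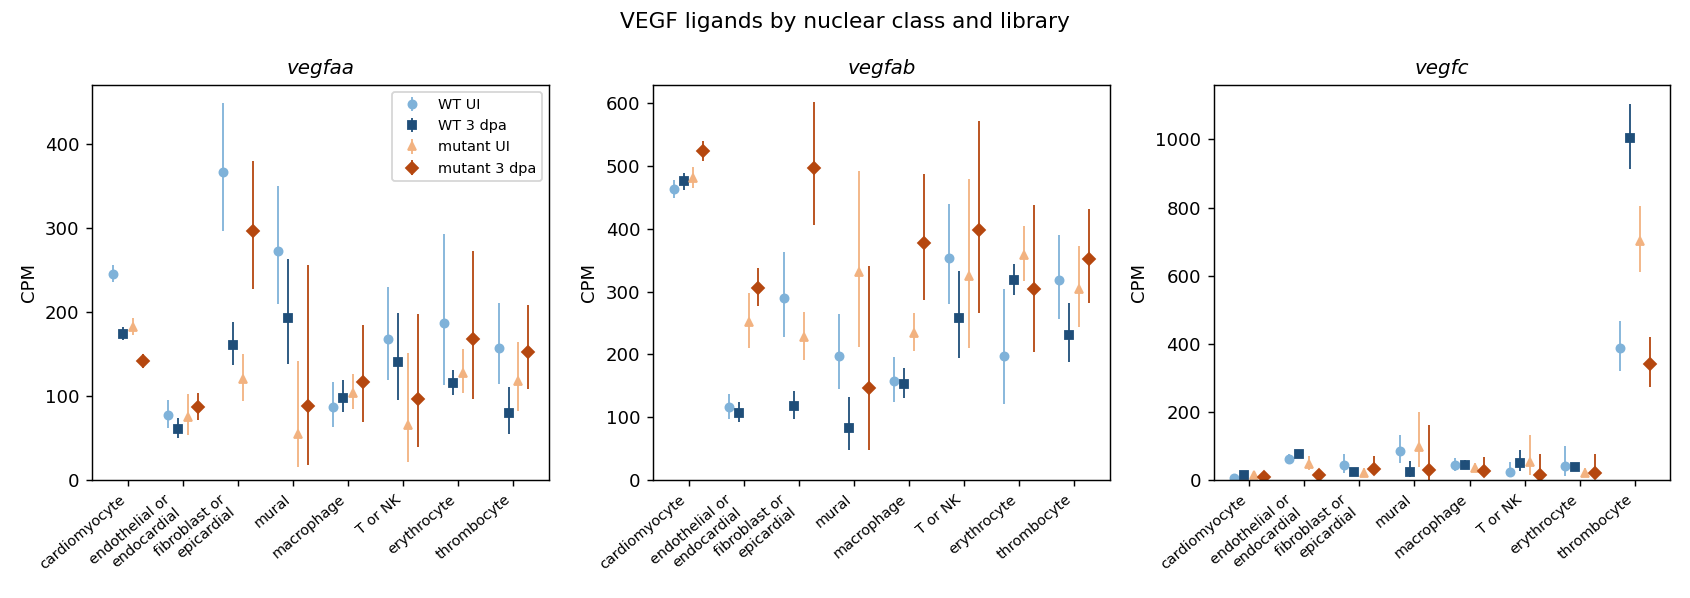
Level of *vegfaa*, *vegfab* and *vegfc* (CPM, y axis) in 8 nuclear classes (x axis) of the 4 libraries (points, with exact Poisson 95% intervals as bars). *vegfab* sits near 500 CPM in cardiomyocyte-like nuclei of every library (464 to 524), and *vegfc* stands out in thrombocyte-like nuclei (339.7 to 1005).

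The balance of the 2 VEGFA paralogs differed between classes within a library. *vegfaa* made up 34.7% (33.5 to 35.9), 26.8% (25.7 to 27.9), 27.5% (26.2 to 28.9) and 21.2% (20.1 to 22.4) of the *vegfaa* and *vegfab* UMIs of cardiomyocyte-like nuclei. In fibroblast-like nuclei the share was 55.9% (48.1 to 63.5), 57.7% (51.6 to 63.6), 34.6% (28.3 to 41.3) and 37.3% (30 to 45.2). The fibroblast share was the higher of the pair in 4 of 4 libraries, with intervals that overlapped in mutant UI and not in the other 3. Erythrocyte-like nuclei had 48.7% (32.4 to 65.2), 26.7% (23.8 to 29.7), 26.3% (21.9 to 31.1) and 35.6% (21.9 to 51.2), which overlapped the fibroblast share in every library but WT 3 dpa. Mural-like nuclei had 57.9% (48.0 to 67.4) in WT UI and 70.2% (56.6 to 81.6) in WT 3 dpa. The mutant libraries did not repeat this lean to *vegfaa*. Mutant UI had 14.3% (4.03 to 32.7) of 28 UMIs, below both WT intervals, and mutant 3 dpa 37.5% (8.52 to 75.5) of 8 UMIs. A share of a pair does not depend on the scaling of the libraries, but *vegfaa* overlaps a long noncoding RNA in the RefSeq annotation, and *vegfab* has no overlapping gene there.

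**Figure D2:**
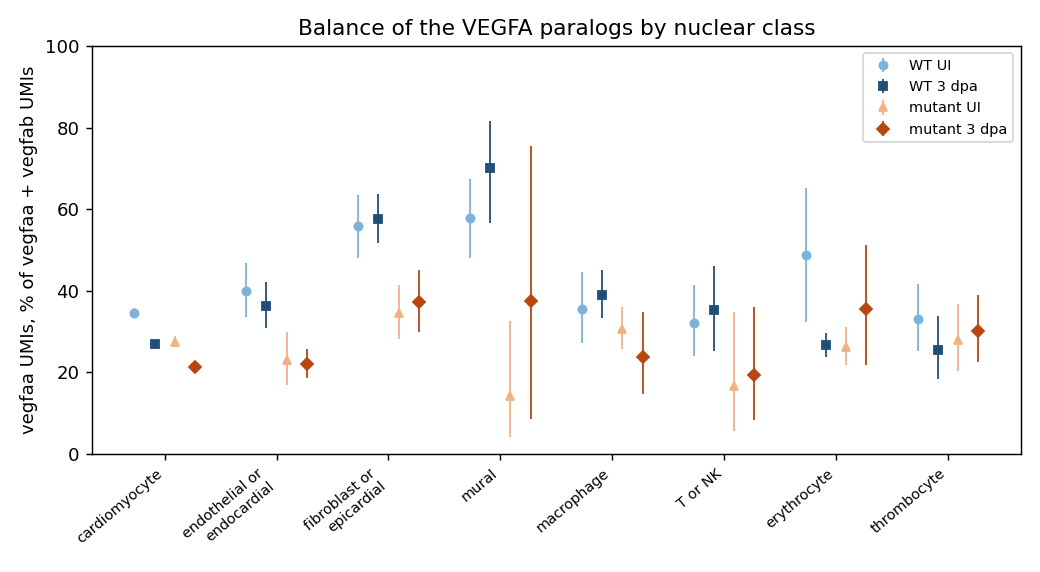
Share of *vegfaa* in the UMIs of *vegfaa* and *vegfab* together (percent, y axis) by nuclear class (x axis) and library (points, with exact binomial 95% intervals as bars). Fibroblast-like nuclei (34.6% to 57.7%) lie above cardiomyocyte-like nuclei (21.2% to 34.7%) within each library.

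*vegfc*, the ligand of *flt4*, was concentrated in thrombocyte-like nuclei, the nucleated zebrafish counterpart of platelets. It was at 388 (319 to 467), 1005 (912 to 1105), 702 (609.9 to 804) and 339.7 (272 to 419) CPM there, from 111, 430, 208 and 87 UMIs. These nuclei held 28.0%, 48.4%, 49.6% and 48.9% of all *vegfc* UMIs of the kept nuclei but only 1.94%, 2.48%, 2.87% and 2.66% of all UMIs. Thrombocyte-like nuclei were the highest class in 4 of 4 libraries, with no overlap of intervals with any other class. A *vegfc* UMI was found in 47.4%, 57.7%, 38.5% and 24.8% of them (28.9%, 40.3%, 30.3% and 17.2% when thinned), at median depths of 930, 898, 686.5 and 770.5 UMIs. In erythrocyte-like nuclei the shares were 4.76%, 4.71%, 1.1% and 1.28% (1.19%, 2.19%, 0.983% and 0% when thinned), and the level was 39.4, 37.8, 21.3 and 21.0 CPM. As with *vegfaa*, a long noncoding RNA overlaps *vegfc* in the RefSeq annotation, and its part in these counts was not tested.

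No other class held *vegfc* at a comparable level. Endothelial-like nuclei read 61.0, 75.3, 46.9 and 13.6 CPM, above the erythrocyte-like level in WT 3 dpa alone once counting intervals were considered. Mural-like nuclei read 83.6 (50.3 to 131) CPM in WT UI and 24.2 (7.84 to 56.4) CPM in WT 3 dpa, and cardiomyocyte-like nuclei stayed between 6.17 and 14.6 CPM. Over 31 sums of nuclei by class and library, genes whose level was among the most like that of *vegfc* included *g6fl* (Pearson r = 0.894) and *itga2b* (0.886). *itga2b* encodes a platelet integrin and is one of the markers that named the class. The sums share libraries and depth, and 8016 genes were ranked, so these are descriptions.

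Between libraries, thrombocyte-like *vegfc* was higher at 3 dpa in WT and lower at 3 dpa in the mutant. The log2 ratio of 3 dpa over UI, taken on CPM plus 10, a scale that understates changes of low genes, was 1.35 (1.05 to 1.66) for WT, while the mutant had -1.03 (-1.39 to -0.67). Of all genes tested in that class, 23.9% and 26.6% were past 2-fold in these comparisons, so changes of this size were common there. Between genotypes, 2 of 8 members tested were past 2-fold for UI (*flt1* and *kdrl*, lower in the mutant), beside 29.4% of all genes, and 3 of 9 for 3 dpa (*vegfc*, *flt1* and *flt4*, lower), beside 29.8%. The summed thrombocyte markers moved too, at 1824, 5323, 4415 and 3265 CPM, which gave log2 ratios of 1.54 in WT and -0.43 in the mutant, and their part in the *vegfc* ratio was not tested. Per 100 marker UMIs, *vegfc* had 21.3 (17.5 to 25.6), 18.9 (17.1 to 20.8), 15.9 (13.8 to 18.2) and 10.4 (8.34 to 12.8) UMIs. Grouping mattered: the WT ratio was 2.96 with finer clusters and 0.31 with a marker gate, and the mutant *vegfc* ratio was -0.50 among nuclei with at least 1000 UMIs. Per marker UMI the WT libraries overlapped, and mutant 3 dpa was below the other 3 libraries. Cardiomyocyte markers in the class summed to 80963 CPM in WT UI and to 35068, 29843 and 51789.5 CPM in the others.

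The fibroblast-like class gave opposite directions as well. *vegfaa* had a log2 ratio of 3 dpa over UI of -1.14 (-1.5 to -0.78) for WT, while the mutant had 1.24 (0.76 to 1.71). *vegfab*, at 289.9, 118, 227 and 497 CPM, had -1.23 (-1.63 to -0.81) and 1.1 (0.73 to 1.46). With *flt4*, 3 of 9 members were past 2-fold in each, beside 22.4% and 29.3% of all genes tested. Between genotypes 3 of 9 were past 2-fold for UI, beside 26.4%, and 3 of 9 for 3 dpa, beside 34%. Fibroblast markers summed to 4549.6, 21036, 12522 and 3285 CPM, and cardiomyocyte markers to 48986, 15563, 14004 and 44895.5 CPM, so both VEGFA paralogs were high in the libraries whose fibroblast-like nuclei carried more heart muscle RNA and less of their own markers. The part of either in the ratios was not tested. Among nuclei with at least 1000 UMIs the *vegfaa* ratios were -0.97 and 0.72, within 2-fold, and without doublet removal those of *vegfab* were -0.88 and 0.82. In cardiomyocyte-like nuclei *vegfab* differed by 0.04 (-0.02 to 0.10) and 0.12 (0.05 to 0.19), and *vegfaa* was lower at 3 dpa in both genotypes, at -0.47 (-0.56 to -0.39) and -0.35 (-0.46 to -0.23). None of the members tested there (9 in WT and 8 in the mutant) passed 2-fold, beside 6.89% and 8.29% of all genes tested.

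The receptors and Tie kinases had their highest level in endothelial or endocardial-like nuclei in 4 of 4 libraries, except *flt4*. For *flt1*, *kdr* and *tek* the intervals of some classes with few UMIs, such as mural-like nuclei of both mutant libraries, reached those of endothelial-like nuclei. The class held 1323, 1405, 562 and 1460 nuclei in 4 clusters, and the libraries filled them unequally. Cluster 4 held 1289 and 1276 of the WT nuclei and 146 and 7 of the mutant ones, while cluster 6 held 7 and 34 of the WT nuclei and 366 and 1435 of the mutant ones. Cluster 4 had 4 of 5 endocardial markers raised, and cluster 6 had 2 of 5 together with 8 of 15 cardiomyocyte markers. Cluster 20, with 121 nuclei, had 3 of 5 blood vessel and 3 of 6 lymphatic markers raised, and cluster 23, with 69 nuclei, had 4 of 5 endocardial and 3 of 5 blood vessel markers raised. The clusters were set from other genes, so receptor levels in them are values the clustering did not use.

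*flt1*, the decoy receptor, showed the largest contrast between genotypes among the 9 genes. In endothelial-like nuclei it was at 1135 (1074 to 1198), 855 (812 to 899), 76.8 (55.1 to 104) and 80.3 (65.8 to 97.2) CPM. It had a UMI in 51.1%, 44.0%, 5.87% and 5.75% of these nuclei (38.9%, 28.3%, 4.24% and 4.33% when thinned), against 23.8%, 14.3%, 0.771% and 1.28% of erythrocyte-like nuclei (14.3%, 7.15%, 0.281% and 1.12% when thinned), at median depths of 676, 936, 781 and 684.5 UMIs in endothelial-like nuclei. Both WT libraries were far above both mutant libraries, and the log2 ratio of mutant over WT was -3.72 (-4.14 to -3.32) for UI and -3.26 (-3.52 to -3.0) for 3 dpa. The gap was in the same direction inside cluster 4, where WT UI had 1164 (1101 to 1229) CPM and mutant UI 86.7 (44.8 to 152) CPM.

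The low *flt1* of the mutant libraries was not limited to endothelial-like nuclei. Before any filter it was at 189, 161, 12.7 and 22.9 CPM over all barcodes, and in cardiomyocyte-like nuclei at 39.0, 48.7, 3.44 and 10.6 CPM. The latter class leaves out cluster 13, and unnamed clusters held 31.8% of the *flt1* UMIs of WT UI. Across other settings its cardiomyocyte-like log2 ratio of mutant over WT for UI ran from -3.43 to -1.84. That of WT 3 dpa over UI, 0.26, ran from -0.72 to 0.31. The share of *flt1* in the *flt1* and *kdrl* UMIs was low in both mutant libraries in other classes too. Endothelial-like nuclei had 57.4% (55.3 to 59.4), 55.4% (53.5 to 57.3), 15.5% (11.3 to 20.4) and 15.5% (12.9 to 18.5), and cardiomyocyte-like nuclei had 52.8% (48.8 to 56.7), 51.9% (48.6 to 55.2), 17.9% (11.6 to 25.8) and 22.3% (18.0 to 26.9), with overlapping intervals within each library. Since the WT and mutant libraries were counted on different gene tables, a difference in how *flt1* was counted cannot be told apart from a difference in its RNA. RefSeq places no other gene over *flt1*.

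*kdrl*, the main zebrafish VEGFA receptor of vessels and endocardium, was at 842 (791 to 897), 689 (651 to 729), 419.8 (367 to 479) and 437 (402 to 474) CPM in endothelial-like nuclei. Both mutant values were below both WT values, with log2 ratios of -0.99 (-1.20 to -0.78) for UI and -0.65 (-0.79 to -0.51) for 3 dpa. The summed markers of the class gave -0.50 and -0.33 in the same comparisons. It had a UMI in 46.0%, 43.4%, 28.3% and 28.1% of these nuclei (34.0%, 26.7%, 20.2% and 20.3% when thinned), and in 17.9%, 13.4%, 2.53% and 8.33% of erythrocyte-like nuclei (8.33%, 6.56%, 1.54% and 4.49% when thinned). In cluster 20, the vessel and lymphatic cluster, WT 3 dpa reached 1131 (942 to 1346) CPM, against 689 (648 to 732) CPM in cluster 4 of the same library. The other libraries did not show this beyond counting error: cluster 20 had 723 (463 to 1076) CPM in WT UI and 409 (246 to 639) CPM in mutant UI, and cluster 4 had 855 (801 to 911) and 318 (231 to 427) CPM.

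**Figure D3:**
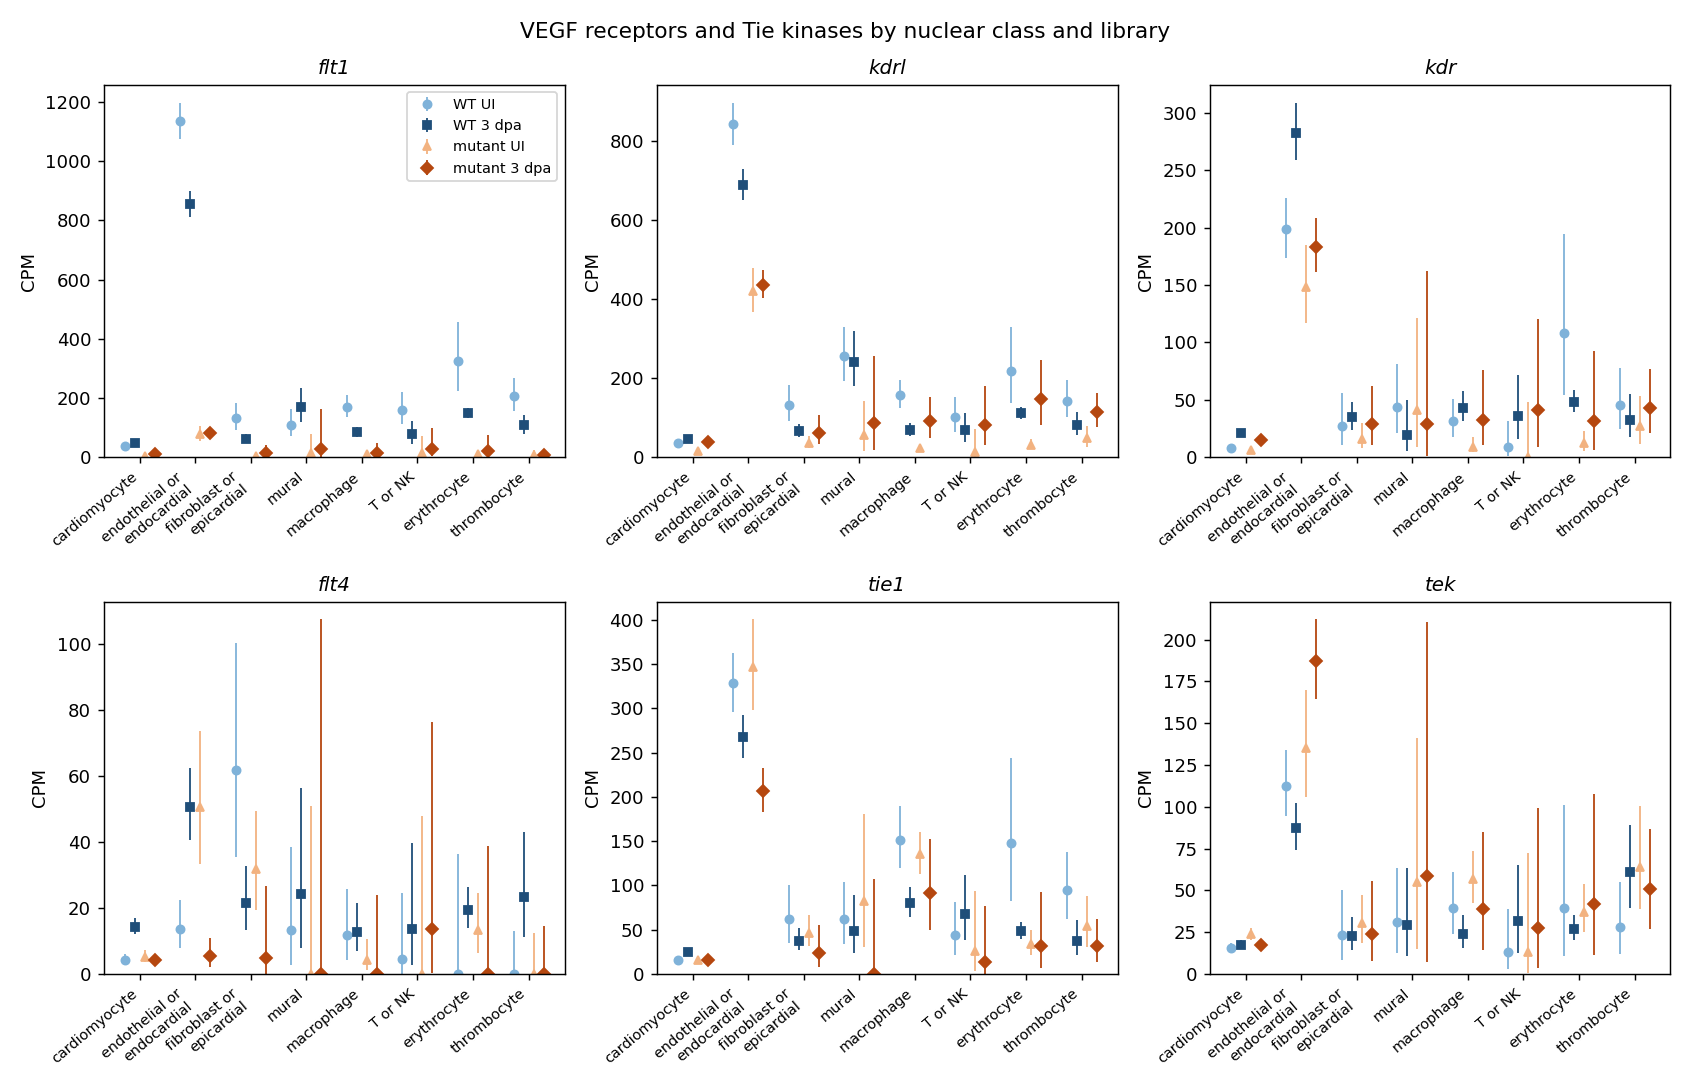
Level of the 4 VEGF receptors and 2 Tie kinases (CPM, y axis, own scale in each panel) in 8 nuclear classes (x axis) of the 4 libraries (points, with exact Poisson 95% intervals as bars). Endothelial-like nuclei are highest for all but *flt4*, and *flt1* is at 1135 and 855 CPM in WT but 76.8 and 80.3 CPM in mutant libraries.

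*kdr*, the other KDR-type receptor, was at 199 (174 to 226), 283 (259 to 309), 148 (117 to 185) and 183 (161 to 208) CPM in endothelial-like nuclei. WT 3 dpa was the highest, with a log2 ratio over WT UI of 0.49 (0.27 to 0.71), while *kdrl* in the same comparison was at -0.29 (-0.41 to -0.17). *kdr* thus made 19.1% (16.9 to 21.4), 29.1% (27.0 to 31.3), 26.1% (21.2 to 31.4) and 29.6% (26.5 to 32.8) of the *kdr* and *kdrl* UMIs, lowest in WT UI, whose interval just reached that of mutant UI. WT UI was also the lowest in cardiomyocyte-like nuclei, at 18.5%, 32.2%, 29.4% and 28.9%, but not in erythrocyte-like nuclei, where 11 of 33 UMIs of WT UI were *kdr* (33.3%, 18.0 to 51.8). *kdr* had a UMI in 15%, 25.0%, 12.1% and 14.2% of endothelial-like nuclei (9.76%, 13.7%, 8.08% and 10.4% when thinned), against 9.52%, 6.39%, 0.991% and 1.92% of erythrocyte-like nuclei (8.33%, 2.86%, 0.843% and 2.25% when thinned). Cluster 23 stood apart within the endothelial-like class, with 34 of 58 UMIs from *kdr* over the libraries, 58.6% (44.9 to 71.4), against 24.5% (22.9 to 26.2), 28.0% (25.3 to 30.8) and 25.8% (20.2 to 31.9) in clusters 4, 6 and 20. The share of cluster 23 rested mostly on WT 3 dpa, with 38 of its 69 nuclei, 26 *kdr* UMIs and 15 *kdrl* UMIs. Mutant 3 dpa had 5 UMIs of each gene. Genes leading that cluster included *has2*, *vcana* and *nrg1*. A protein-coding gene overlaps *kdr* in RefSeq, and reads of the 2 may not be separable.

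Mural-like nuclei of the WT libraries carried *kdrl* at 255 (194 to 329.8) and 242 (179 to 319) CPM. In WT 3 dpa that was above the 111 (97.4 to 127) CPM of erythrocyte-like nuclei, although the endothelial markers summed to 1570.4 and 1549.9 CPM in these 2 classes. In WT UI the erythrocyte-like level, 217 (136 to 328) CPM, overlapped the mural-like one. *kdr* made 14.7% (7.28 to 25.4) and 7.41% (2.06 to 17.9) of the pair in mural-like nuclei, and *flt1* made 30.1% (20.5 to 41.2) and 41.2% (30.6 to 52.4) of *flt1* and *kdrl*. The intervals of the *kdr* share of WT UI overlapped those of endothelial-like nuclei, and the other 3 shares lay below them.

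*flt4*, the receptor of *vegfc*, was scarce, and its place was unsettled. Endothelial-like nuclei held 13.8 (7.86 to 22.3), 50.8 (40.8 to 62.5), 50.6 (33.3 to 73.6) and 5.30 (2.13 to 10.9) CPM, from 16, 89, 27 and 7 UMIs. Fibroblast-like nuclei held 61.8 (35.4 to 100.4), 21.4 (13.2 to 32.7), 32.0 (19.5 to 49.4) and 4.77 (0.121 to 26.6) CPM. Fibroblast-like nuclei were the higher class in WT UI and endothelial-like nuclei in WT 3 dpa, and in both mutant libraries the intervals overlapped. Erythrocyte-like nuclei read 19.4 and 13.3 CPM in WT 3 dpa and mutant UI, and 0 UMIs in WT UI and mutant 3 dpa, which allows up to 29.6 and 31.5 CPM (3 counts). The share of endothelial-like nuclei with a UMI was 1.06%, 5.55%, 3.02% and 0.479% (0.303%, 2.28%, 1.82% and 0.327% when thinned), against 0%, 2.94%, 0.441% and 0% of erythrocyte-like nuclei.

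Within the endothelial-like class, *flt4* was richest in cluster 20, which carried both vessel and lymphatic markers. Cluster 20 had 151 (48.9 to 352), 144 (82.1 to 233) and 366 (213 to 586) CPM in WT UI, WT 3 dpa and mutant UI, from 5, 16 and 17 UMIs. Cluster 4 had 9.89 (4.93 to 17.7), 45.9 (35.8 to 58.0) and 7.23 (0.183 to 40.3) CPM in those libraries. Cluster 6 had 74.9 (15.5 to 219) CPM in WT 3 dpa, from 3 UMIs, which overlapped cluster 20. In mutant UI cluster 6 had 27.7 (12.7 to 52.7) CPM, below cluster 20. The higher *flt4* of WT 3 dpa over WT UI was seen in cluster 4, where the intervals did not overlap, while those of cluster 20 did. Of the 27 UMIs of mutant UI, 17 came from the 44 nuclei of cluster 20, which held only 2 nuclei of mutant 3 dpa.

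**Figure D4:**
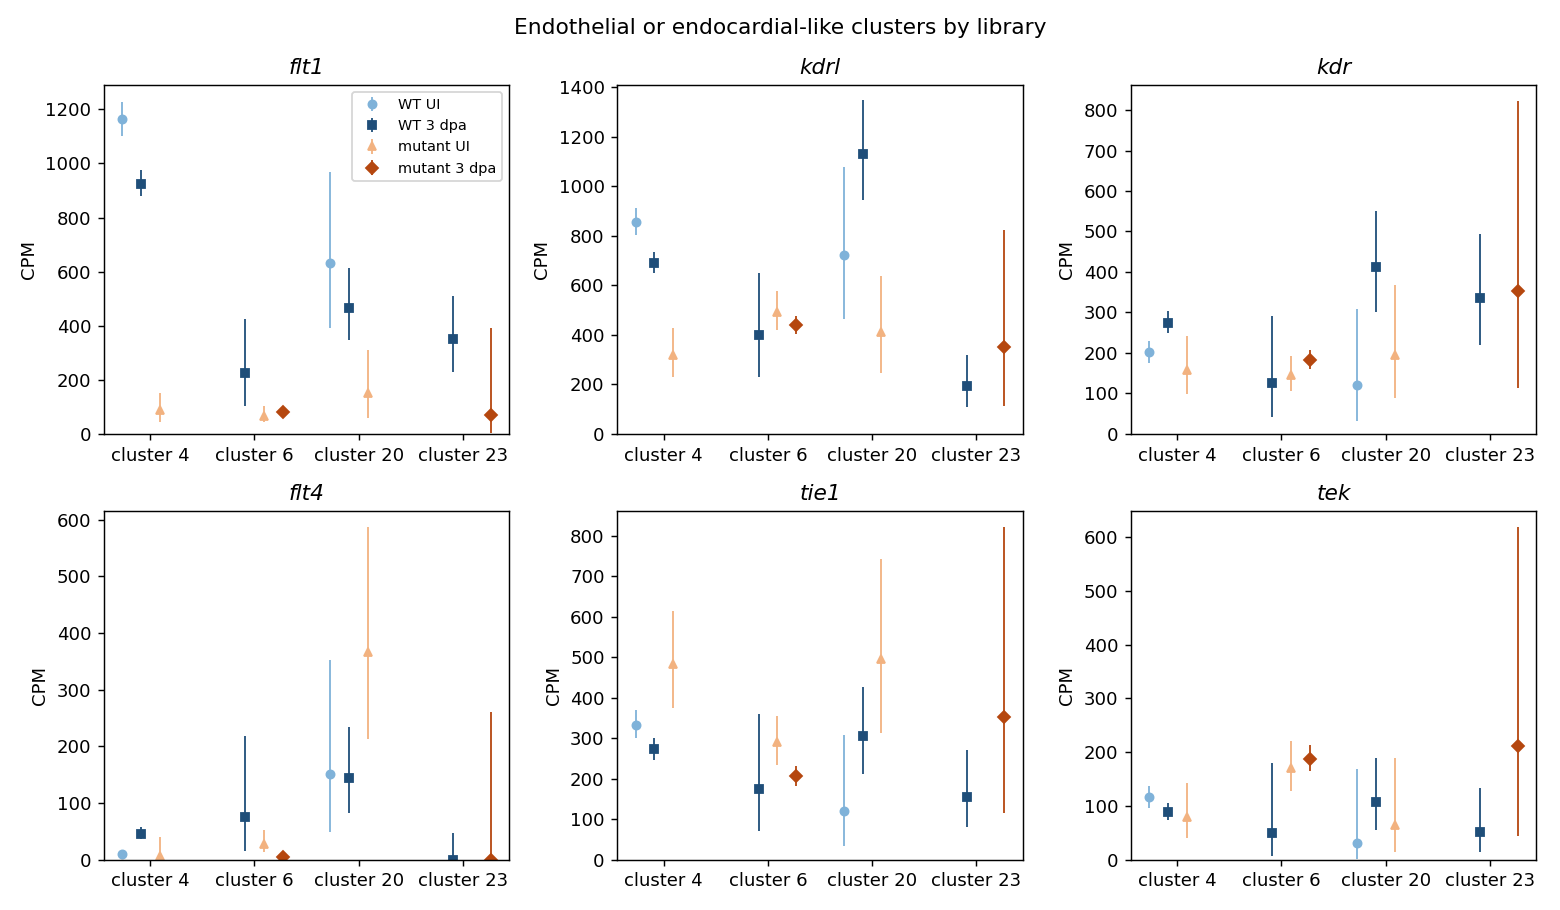
Level of the 4 VEGF receptors and 2 Tie kinases (CPM, y axis, own scale in each panel) in the 4 endothelial or endocardial-like clusters (x axis) by library (points, with exact Poisson 95% intervals as bars; libraries with under 10 nuclei in a cluster are left out). *flt4* is highest in cluster 20 (144 to 366 CPM), and *tek* reads 170 and 188 CPM in cluster 6 of mutant UI and mutant 3 dpa.

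*tie1*, the orphan receptor of the Tie pair, was at 328 (296 to 363), 267 (244 to 293), 347 (299 to 400.4) and 206 (182 to 232) CPM in endothelial-like nuclei. It was lowest in mutant 3 dpa, whose log2 ratio over mutant UI was -0.72 (-0.99 to -0.46). Macrophage-like nuclei were next, with 151 (119.5 to 189), 79.8 (63.9 to 98.5), 136 (113 to 161) and 90.9 (49.7 to 153) CPM, against 148, 48.4, 33.3 and 31.5 CPM in erythrocyte-like nuclei. The macrophage-like share of nuclei with a UMI was 13.4%, 9.01%, 9.67% and 8.54% (8.06%, 3.05%, 7.30% and 4.44% when thinned), and the erythrocyte-like share was 14.3%, 6.39%, 2.75% and 1.92% (11.9%, 3.11%, 1.97% and 2.25% when thinned). After thinning, macrophage-like nuclei exceeded erythrocyte-like nuclei beyond counting error in mutant UI, and the intervals overlapped in the other 3 libraries. By CPM the intervals were apart in WT 3 dpa and mutant UI.

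The balance of *tie1* against *kdrl* differed between macrophage-like nuclei and the endothelial-like class taken as a whole. *tie1* made 49.0% (41.0 to 57.1), 53.7% (45.7 to 61.6), 85.7% (79.2 to 90.8) and 50% (30.6 to 69.4) of the pair in macrophage-like nuclei. Endothelial-like nuclei had 28.0% (25.7 to 30.5), 28.0% (25.8 to 30.2), 45.2% (40.3 to 50.2) and 32.1% (28.9 to 35.3). The macrophage-like share was the higher in 4 of 4 libraries, with intervals apart in 3 and overlapping in mutant 3 dpa, which had 14 *tie1* UMIs in this class. Erythrocyte-like nuclei had 40.5%, 30.3%, 52.1% and 17.6%, and overlapped macrophage-like nuclei in WT UI and mutant 3 dpa. T or NK cell-like nuclei, with few UMIs, had 30.3%, 50%, 66.7% and 14.3%, and overlapped macrophage-like nuclei in every library. Within the endothelial-like class, cluster 23 had 47.8% (32.9 to 63.1) over the libraries. Endothelial markers summed to 1766, 1052, 587 and 1078 CPM in macrophage-like nuclei, below erythrocyte-like nuclei in all libraries but mutant UI. Cluster 17 held 307 of the 509 macrophage-like nuclei of WT UI, and cluster 5 held most of those of the other libraries. An antisense RNA, *lnc.tie1*, overlaps *tie1* in RefSeq, and the labels do not say whether the authors' counting used strand.

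*tek*, the angiopoietin receptor, was at 113 (94.2 to 134), 87.3 (74.0 to 102), 135 (106 to 169.9) and 187 (165 to 212) CPM in endothelial-like nuclei. Mutant 3 dpa was the highest, with a log2 ratio over WT 3 dpa of 1.02 (0.75 to 1.29), which was 0.86 among nuclei with at least 1000 UMIs. *tek* made 25.5% (21.8 to 29.5), 24.6% (21.3 to 28.2), 28.0% (22.6 to 33.9) and 47.6% (43.2 to 52.0) of the *tek* and *tie1* UMIs. By cluster, *tek* was at 116 (96.8 to 138), 88.6 (74.3 to 105) and 79.5 (39.7 to 142) CPM in cluster 4 of WT UI, WT 3 dpa and mutant UI. It was at 170 (128 to 221) and 188 (165 to 213) CPM in cluster 6 of mutant UI and mutant 3 dpa. The 2 mutant libraries overlapped inside cluster 6, and mutant UI overlapped WT inside cluster 4, but clusters 4 and 6 of mutant UI overlapped as well. In WT 3 dpa, cluster 6 held 2 *tek* UMIs, at 49.9 (6.05 to 180) CPM. *tek* had a UMI in 9.15%, 9.89%, 11.2% and 14.4% of endothelial-like nuclei (5.75%, 3.99%, 7.68% and 9.97% when thinned), against 4.76%, 4.12%, 2.86% and 2.56% of erythrocyte-like nuclei (2.38%, 1.85%, 1.97% and 2.25% when thinned). Outside the class *tek* stayed at or under 64.1 CPM, beside 39.4, 27.1, 37.3 and 42.0 CPM in erythrocyte-like nuclei.

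UMIs of several receptors in 1 nucleus were seen more often in the WT libraries than in the mutant ones. No UMI of any of the 6 genes was found in 17.6%, 21.3%, 41.3% and 45.4% of endothelial-like nuclei. Exactly 1 of the 6 was found in 38.0%, 33.4%, 37.0% and 36.0%, and 2 in 28.4%, 27.5%, 17.3% and 14.2%. The remaining 15.9%, 17.8%, 4.45% and 4.38% had 3 or more. One of the 6 genes is *flt1*, whose low counts in the mutant libraries cannot be told apart from the different gene tables. No count was made without *flt1* or at a common depth, so its part in these shares was not tested. The median UMI count of these nuclei was 676 to 936, and a missing UMI is not absence of the RNA.

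In endothelial-like nuclei, 1 of the 9 genes was past 2-fold between WT 3 dpa and WT UI, where 4.44% of all genes tested were. That gene was *flt4*, with a log2 ratio of 1.35 (0.84 to 1.84). In the mutant, 2 of 9 were past 2-fold, beside 13.3% of all genes: *flt4* at -1.99 (-2.56 to -1.32) and *vegfc* at -1.27 (-1.88 to -0.62). The endothelial-like nuclei of the 2 mutant libraries differed in make-up, since mutant UI had 146 nuclei in cluster 4 and mutant 3 dpa had 7. Those 146 nuclei held 16 of the 25 *vegfc* UMIs of mutant UI and 1 of its 27 *flt4* UMIs. Inside cluster 6, *flt4* was at 27.7 (12.7 to 52.7) CPM in mutant UI and 4.62 (1.70 to 10.1) CPM in mutant 3 dpa. These values came from 9 and 6 UMIs. *vegfc* was at 24.7 (10.6 to 48.6) and 13.1 (7.62 to 21.0) CPM in that cluster, with intervals that overlapped. The part of make-up in the ratios was not tested. The median over the 9 genes was -0.29 in WT and 0.06 in the mutant, and over all genes tested 0.10 and -0.25.

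Between genotypes, 3 of 9 genes were past 2-fold for UI, beside 18.7% of all genes tested, and 5 of 9 for 3 dpa, beside 18.9%. In both, *flt1* was lower and *vegfab* higher in the mutant library. *vegfab* was at 116, 107, 251 and 306 CPM in endothelial-like nuclei, with log2 ratios of 1.05 (0.72 to 1.38) and 1.43 (1.20 to 1.67), and the first was 0.45 without doublet removal. No value exceeded that of erythrocyte-like nuclei of the same library (197, 318, 358 and 305 CPM) beyond the counting intervals. Cardiomyocyte markers in endothelial-like nuclei summed to 29443, 23153, 20129 and 40648.5 CPM, and their part in the ratios was not tested. *flt4* was higher in mutant UI, at 1.35 (0.69 to 1.97), or 0.88 with nuclei of up to 10% mitochondrial UMIs, and lower in mutant 3 dpa, at -1.99 (-2.41 to -1.47). For 3 dpa *vegfc* was lower, at -1.85 (-2.30 to -1.38), and *tek* higher. Different clusters held most of the class in the 2 genotypes, as given above. The median over the 9 genes was -0.04 for UI and -0.60 for 3 dpa, against 0.19 and -0.21 over all genes tested.

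**Figure D5:**
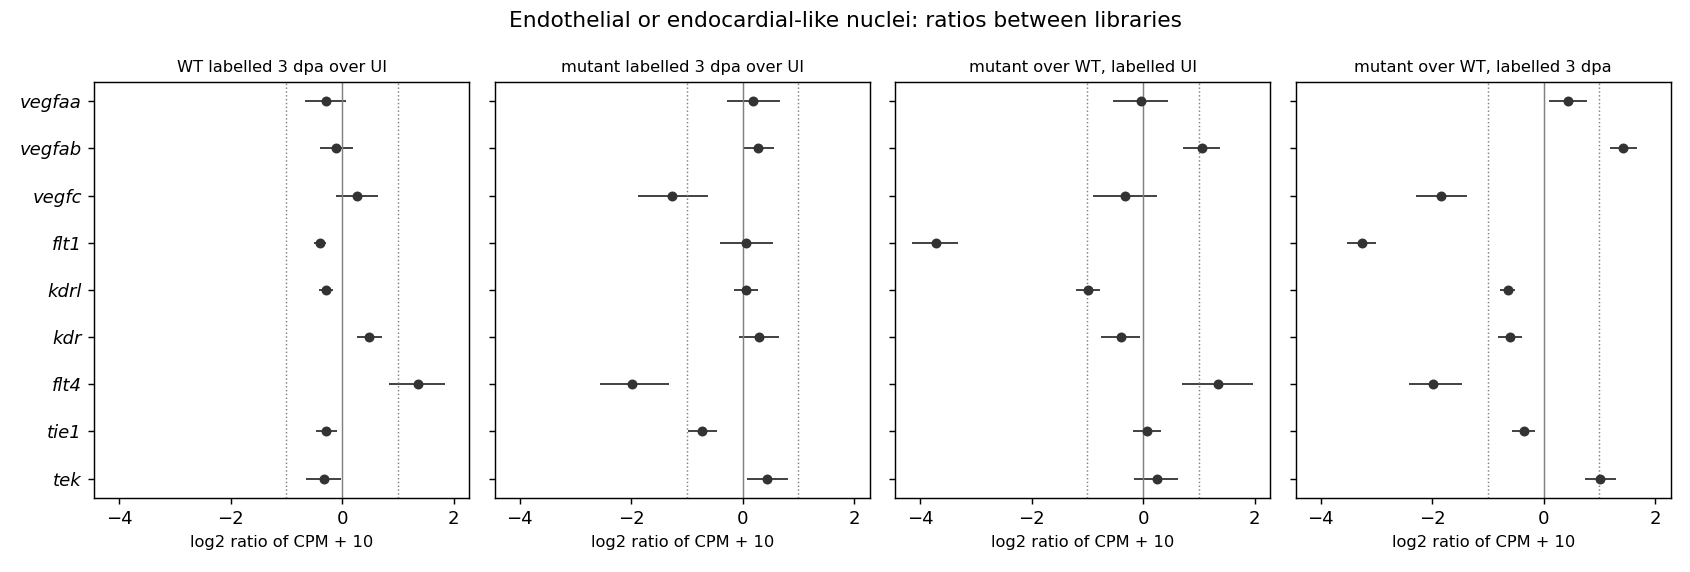
Log2 ratio of CPM + 10 (x axis) of the 9 genes (y axis) between libraries in endothelial or endocardial-like nuclei, with 95% intervals for counting error as bars and dotted lines at 2-fold. *flt1* lies at -3.72 and -3.26 for mutant over WT, and *flt4* at 1.35 and -1.99 for 3 dpa over UI in WT and mutant.

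Over all kept nuclei, 0 of 9 and 1 of 8 members tested were past 2-fold for 3 dpa over UI in WT and mutant, beside 6.66% and 11.3% of all genes tested. The 1 gene was *kdrl* in the mutant, at 42.3 and 97.6 CPM, a log2 ratio of 1.04 (0.90 to 1.18), or 0.70 with nuclei of up to 10% mitochondrial UMIs. In endothelial-like nuclei of the same libraries the ratio was 0.06 (-0.16 to 0.28), and these nuclei were 562 of 9336 and 1460 of 8592 kept nuclei. Between genotypes, 2 of 8 (*flt1* and *kdrl*, both lower in the mutant) were past 2-fold for UI, beside 14.8%, and 3 of 9 (*vegfc*, *flt1* and *flt4*, all lower) for 3 dpa, beside 16.6%. In cardiomyocyte-like nuclei, *flt1* was the 1 gene past 2-fold in each, of 7 and 9 tested, beside 14.5% and 13.7%.

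A list of 29 further genes of the VEGF and angiopoietin pathways, of which 27 were measured, was read in endothelial-like nuclei. For WT 3 dpa over UI, 2 of the 19 tested were past 2-fold, beside 4.44% of all genes tested, and both were higher: the FOXO transcription factors *foxo1a*, from 182 to 518 CPM, and *foxo1b*, from 88.5 to 312 CPM. For the mutant, 2 of 19 were higher and 2 lower, beside 13.3% of all genes past 2-fold. *angpt4*, a Tie2 ligand in mammals, went from 315 to 929.9 CPM and *svep1*, a matrix protein that acts in lymphatic growth, from 73.1 to 182 CPM. *nrp2a*, a VEGFC co-receptor, went from 50.6 to 7.58 CPM and *aplnrb*, an apelin receptor, from 45.0 to 11.4 CPM.

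Between genotypes, 4 of 21 were higher and 1 lower for UI, close to the 18.7% of all genes past 2-fold. For 3 dpa 3 of 20 were higher and 4 lower, beside 18.9%. The Notch ligand *dll4*, which restrains sprouting, was at 297, 185, 78.7 and 62.1 CPM and was the 1 lower gene for UI, with log2 ratios of -1.79 (-2.23 to -1.37) and -1.44 (-1.75 to -1.12). The angiopoietin *angpt1* was at 384, 268, 686 and 911 CPM, past 2-fold for 3 dpa at 1.73 (1.58 to 1.88). *adamts3*, a protease that activates VEGFC in mammals, was at 42.1, 62.7, 16.9 and 8.34 CPM, past 2-fold for 3 dpa at -1.99 (-2.43 to -1.48). The other 4 past 2-fold for 3 dpa were *angpt4* and *svep1*, higher, and *nrp2a* and *foxo1b*, lower, and the 4 higher for UI were *nrp2a*, *foxo1a*, *aplnra* and *aplnrb*. The median of the list was 0.03 and -0.55 for injury in WT and mutant, and 0.39 and -0.46 between genotypes for UI and 3 dpa. *nrp1a* (272, 415, 386 and 261 CPM), *nrp1b* (152, 165, 133 and 83.4 CPM) and *nrp2b* (228, 168, 307 and 274 CPM), neuropilin co-receptors of VEGF, and *ptprb* (553, 505, 317 and 400.1 CPM), a phosphatase that acts on TEK in mammals, stayed within 2-fold in all 4 comparisons. So did the ligand *pgfb* (68.8, 35.9, 39.4 and 20.5 CPM), the signalling enzyme *plcg1* (64.5, 66.2, 80.6 and 37.1 CPM) and the peptide ligand *apln* (156, 119, 131 and 74.3 CPM).

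Across the 31 class sums, the genes most like the receptors were in part endothelial genes. They were *sema3ab*, *hyal2a* and *egfl7* for *flt1* (r = 0.917, 0.915 and 0.910), *notch1b*, *epas1b* and *map4k2* for *kdrl* (0.943, 0.932 and 0.922), and *CU927890.1*, *ptprb* and *map4k2* for *kdr* (0.900, 0.895 and 0.891). For *tek* they were *tmem88a*, *dip2ba* and *si:ch211-145b13.6* (0.857, 0.809 and 0.801), of which *tmem88a* and *si:ch211-145b13.6* were leading genes of cluster 6. For *tie1* they were *ubash3bb*, *ENSDARG00000059587* and *ece2b* (0.898, 0.862 and 0.846), and for *flt4* *ptprua*, *si:ch211-208k15.1* and *smad6b* (0.807, 0.756 and 0.741). *vegfab* was most like *lamb2*, *msi2b* and *pcbp4* (0.938, 0.902 and 0.897). *vegfaa* had weaker partners, *ENSDARG00000068280*, *mob2a* and *adamts8a* (0.762, 0.739 and 0.710). *egfl7*, listed for *flt1*, is one of the markers that named the endothelial or endocardial-like class, so that match was partly set by how the classes were named.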

How the data were processed

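Single-nucleus libraries were made with the 10x Chromium 3' v3.1 kit, per the labels' protocols. The deposited matrices hold raw counts of UMIs per gene and barcode, not normalized. Cell Ranger 7.0.0, R 4.2.0, Seurat 4.3.0 and genome build GRCz11 are named in the submitters' processing notes. For the intron setting, the use of strand and the cell-calling rule, the source texts used give no statement. The 16 labelled samples share 4 matrices with no map from barcode to sample, so each matrix was 1 library, and p-values were not computed.

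Kept nuclei had 500 UMIs or more, of which mitochondrial genes made 5% at most. The automatic threshold of scrublet marked at most 1 nucleus per library, so the 6% with the highest doublet scores were removed. Clustering (scanpy 1.11.5, leidenalg 0.10.2, 2000 variable genes, 30 components, 15 neighbours, resolution 1) left out the 9 members, the pathway list and mitochondrial genes. UMIs were summed per class and library over the 24753 symbols that all tables share and scaled to CPM. These genes held 99.9%, 100.0%, 90.3% and 90.8% of the UMIs of all barcodes, before any filter. Gene IDs matched in all tables for each member. Intervals are exact Poisson for sums and exact Clopper-Pearson for shares, at 95%, and cover counting error only, and so does the limit of 3 counts for a count of 0. Ratios are log2 of CPM + 10, for genes with at least 10 CPM in 1 of the 2 libraries. Ratios past 2-fold were counted. Shares of positive nuclei were also taken at a common depth of 500 UMIs per nucleus, without the nuclei that had fewer UMIs of shared genes (1, 0, 67 and 236 endothelial-like nuclei). The erythrocyte-like class of mutant 3 dpa lost nuclei by this rule too, so thinned shares of mutant libraries cover the deeper nuclei of a class. The ratio step was tested on simulated data. R 4.3.3 with edgeR 4.0.16 and DESeq2 1.42.0 gave the scaling alternatives only. Overlapping genes come from a RefSeq table of another assembly, used for names and neighbours only.

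The members, lists and markers were chosen with earlier results of these data known. All 9 members are named, with pathway genes past 2-fold or reaching 50 CPM in endothelial-like nuclei, and the 3 genes most like each member, except 1 for *vegfc*, which is not reported here. The rule that named clusters from markers, cluster 13 being left unnamed, the ratios in thrombocyte-like and fibroblast-like nuclei, and the shares of gene pairs were set after clusters and member values had been seen. In all, 13 other settings were run, 1 of them (cluster 13 as cardiomyocyte-like) chosen after seeing the data.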

Additional observations from a re-analysis of the deposited data

Results flagged for a closer look

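The injury ratio pointed one way in WT and the other way in the mutant, with counting intervals that did not reach 0, for the results below. Each is given as the mutant ratio minus the WT ratio on the log2 scale. With 1 library per group none of these differences was tested.

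In endothelial-like nuclei the difference was -3.34 for *flt4* and 0.78 for *tek*. The WT ratio of *tek*, -0.33, ran from -0.52 to 0.13 across other settings, so its direction was not kept. In thrombocyte-like nuclei the difference was -2.38 for *vegfc* and 1.85 for *kdrl*, the latter from 14 to 41 UMIs per library. The mean *kdrl* level over the libraries was 96.4 CPM there, below the 127 CPM of erythrocyte-like nuclei, the reference for RNA from other cells. In fibroblast-like nuclei the difference was 2.38 for *vegfaa* and 2.32 for *vegfab*. In cardiomyocyte-like nuclei the difference was -1.06 for *vegfc*, whose mean level there, 10.8 CPM, was below the 29.9 CPM of erythrocyte-like nuclei. Over all kept nuclei the difference was 0.34 for *vegfab*, -1.57 for *vegfc*, 0.98 for *flt1*, 1.20 for *kdrl* and -1.27 for *flt4*. The WT ratio of *kdrl* there, -0.16, ran from -0.64 to 0.15 across other settings, so its direction was not kept either. For *flt1* the mutant ratio was 0.67 over all kept nuclei, 0.06 (-0.41 to 0.54) in endothelial-like nuclei and 0.62 (0.38 to 0.84) in cardiomyocyte-like nuclei. Endothelial-like nuclei made 6.02% of kept nuclei in mutant UI and 17.0% in mutant 3 dpa, and the part of this in the ratio was not tested. The libraries labelled mutant also differed from each other in *cited4a* RNA, at 32.9 CPM for UI and 371 CPM for 3 dpa.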

How the results depend on the processing

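No paired analysis was possible because the 4 labelled samples of a group share 1 matrix with no map from barcodes to samples. Of the 41 member ratios past 2-fold in the 5 groups of nuclei compared, 46 of 478 alternative values came to 2-fold or less, and 1 changed direction: *flt4* in fibroblast-like nuclei, mutant over WT for 3 dpa, went from -1.09 to 0.13 at 1000 UMIs per nucleus. *flt1* in endothelial-like nuclei stayed between -4.16 and -3.38 for UI and between -3.76 and -2.96 for 3 dpa. In endothelial-like nuclei, a minimum of 1000 UMIs gave 5 members past 2-fold between genotypes for UI and 8 for 3 dpa, where 3 and 5 were reported, and the share of all genes past 2-fold rose as well, from 18.7% and 18.9% to 25.0% and 25.2%. At most 10% mitochondrial UMIs, and likewise TMM scaling, gave 1 member for the mutant injury ratio in place of 2, and a marker gate in place of clusters gave 2 for WT injury in place of 1, beside 25.5% of all genes in place of 4.44%. Over cardiomyocyte-like and all kept nuclei together, a pseudocount of 1 CPM gave 21 values past 2-fold in place of 8. The cause of these moves was not tested. The class with the highest mean level was kept for at least 8 of 9 members in every alternative that regroups nuclei or totals, and the exception in 4 of them was *flt4*, which moved to fibroblast-like nuclei. Scaling shifted the median of all genes in endothelial-like nuclei from 0.10, -0.25, 0.19 and -0.21 to -0.03, 0.11, -0.03 and 0.06 with TMM (injury in WT and mutant, then genotype for UI and 3 dpa). The marker gate left too few endothelial-like nuclei of mutant 3 dpa for its ratios, and clustering each library by itself gave no cardiomyocyte-like class there. Counts under about 20 UMIs, as for *flt4*, limit what can be told apart.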
